A study of Mus musculus with 9 samples.

Results

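Skeletal muscle is marked by a small set of regulators and by the proteins of its contractile machinery. The 10 genes described here are the myogenic factors Myod1, Myog and Myf5, the muscle actins Acta1 and Actc1, the troponin Tnnt1, the myosin genes Myh3 and Mylpf, the intermediate filament gene Des and the kinase gene Ckm. They were given by name as signs of muscle cells in neural crest cultures, and all 10 were present among the 56481 gene symbols of the count table. RNA of cultured mouse cells was sequenced in 9 libraries, with 3 in each of 3 groups. Induced corneal endothelial cells (iCEC) were made from neural crest cells that were held, without serum, in medium with 5% KSR, a serum substitute, and 5 µM SB431542, a blocker of the TGF-β type I receptor. That medium was renewed every 2 days, clusters were seen by day 4 and colonies were studied on day 12. Primary corneal endothelial cells (pCEC) were kept in medium with 10% FBS. Primary neural crest cells (pNCC), from E13.5 mouse embryos, were kept in the same serum medium and served as the baseline for the other 2 groups. The molecule is labelled polyA RNA except in pCEC 2 and pCEC 3, where it is labelled total RNA. Strain, sex and the isolation of the cells were not given in the sources used here, and the labels do not say whether libraries of a group came from separate animals, so a p-value reflects the spread among these libraries and no more, which may be technical.

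During development Myf5 and Myod1, transcription factors of the basic helix-loop-helix class, commit precursor cells to the muscle lineage, and Myog drives their differentiation. Differentiating cells fuse into fibres and assemble sarcomeres, in which thick filaments of myosin slide along thin filaments of actin, and embryonic isoforms are later replaced by adult ones. In the head, the neural crest gives rise to the connective tissue around muscles, while the muscle fibres themselves come from mesoderm.

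The regulatory sequences of the members are shown for Myog, Acta1 and Actc1, because Myog is the most abundant myogenic factor here and the 2 actins went separate ways among the pNCC libraries. Each sequence is the 250 bases before the RefSeq start on GRCm38.p6, in the direction of transcription, with every E-box (CANNTG, which reads as an E-box on both strands and is bound by factors of the Myod1 class) and CArG box (bound by serum response factor, also searched on both strands) in capitals. The Myog window is chr1:134289754-134290003 (plus strand), that of Acta1 is chr8:123894776-123895025 (minus strand) and that of Actc1 is chr2:114052876-114053125 (minus strand).
Myog: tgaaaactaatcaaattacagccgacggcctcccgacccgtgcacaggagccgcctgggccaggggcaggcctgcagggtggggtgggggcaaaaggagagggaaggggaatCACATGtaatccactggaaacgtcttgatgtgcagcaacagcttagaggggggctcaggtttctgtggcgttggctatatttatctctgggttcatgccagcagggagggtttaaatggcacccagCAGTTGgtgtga
Acta1: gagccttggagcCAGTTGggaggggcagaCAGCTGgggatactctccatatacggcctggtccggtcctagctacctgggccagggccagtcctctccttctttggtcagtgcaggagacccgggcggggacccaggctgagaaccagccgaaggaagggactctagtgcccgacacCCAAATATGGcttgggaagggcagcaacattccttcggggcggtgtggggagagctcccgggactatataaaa
Actc1: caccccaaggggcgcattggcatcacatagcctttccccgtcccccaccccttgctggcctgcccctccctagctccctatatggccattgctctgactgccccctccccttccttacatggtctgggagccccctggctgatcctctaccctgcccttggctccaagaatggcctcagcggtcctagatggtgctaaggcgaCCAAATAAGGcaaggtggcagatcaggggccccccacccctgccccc
Myog had E-boxes 138 and 12 bases before the RefSeq start. The last 15 bases of its window are exon in the GENCODE annotation used for the gene positions below, and the E-box at 12 bases lies among them. The Actc1 window holds 12 such exon bases and lies within the gene bounds of GENCODE. Acta1 had E-boxes at 238 and 221 bases and a CArG box at 73 bases, none of which overlapped another, and Actc1 had a CArG box at 47 bases. Of the 9 members with a promoter entry, 7 held an E-box in this window, against 66.2% of 32817 promoters of the same length. A CArG box stood in 2 of the 9, Acta1 and Actc1, against 1.47% of all promoters. These matches describe letters in a window and not binding.

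Total counts ran from 27389292 to 47967113 per library, so that 3 counts, used here as the floor, came to 0.0625 to 0.110 CPM (counts scaled by the total count of the library). Between 59.2% and 61.3% of nonzero counts were even, and each library had more genes with a count of 2 (1989 to 2337) than of 1 (723 to 970), so a count is not always an independent fragment. Counting intervals below assume that it is. Marker lists were read as a check of the labels. In pNCC the crest factor Sox10 stood at 37.8, 52.1 and 16.9 CPM in replicates 1, 2 and 3, and the 10 fibroblast markers summed to between 35063 and 52751 CPM. The 11 surface epithelium markers summed to between 14739 and 22806 CPM in iCEC, 35367 and 47634 CPM in pCEC, and 88.7 and 137 CPM in pNCC, so the libraries labelled corneal endothelial carried epithelial transcripts at a high level, whose part in the results on muscle genes was not tested. Col8a2, a collagen of the membrane beneath the corneal endothelium, averaged 0.076 ± 0.066 CPM in iCEC, 89.2 ± 58.5 CPM in pCEC and 11.0 ± 6.85 CPM in pNCC (SD, n = 3 each). The neural crest list of 14 genes summed to between 414 and 947 CPM in iCEC, 522 and 638 CPM in pCEC, and 412 and 722 CPM in pNCC.

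The 10 muscle genes were found almost entirely in pNCC. Their summed level was 3.46, 2.15 and 2.32 CPM in iCEC 1, 2 and 3, 1.68, 1.41 and 1.42 CPM in pCEC 1, 2 and 3, and 101, 117 and 85.4 CPM in pNCC 1, 2 and 3. The means were 2.64 ± 0.712 CPM in iCEC, 1.50 ± 0.148 CPM in pCEC and 101 ± 15.7 CPM in pNCC (SD, n = 3 each). Every pNCC library thus lay far above every other library. In bulk RNA, fewer muscle cells and less muscle RNA per cell cannot be told apart.

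**Figure D1:**
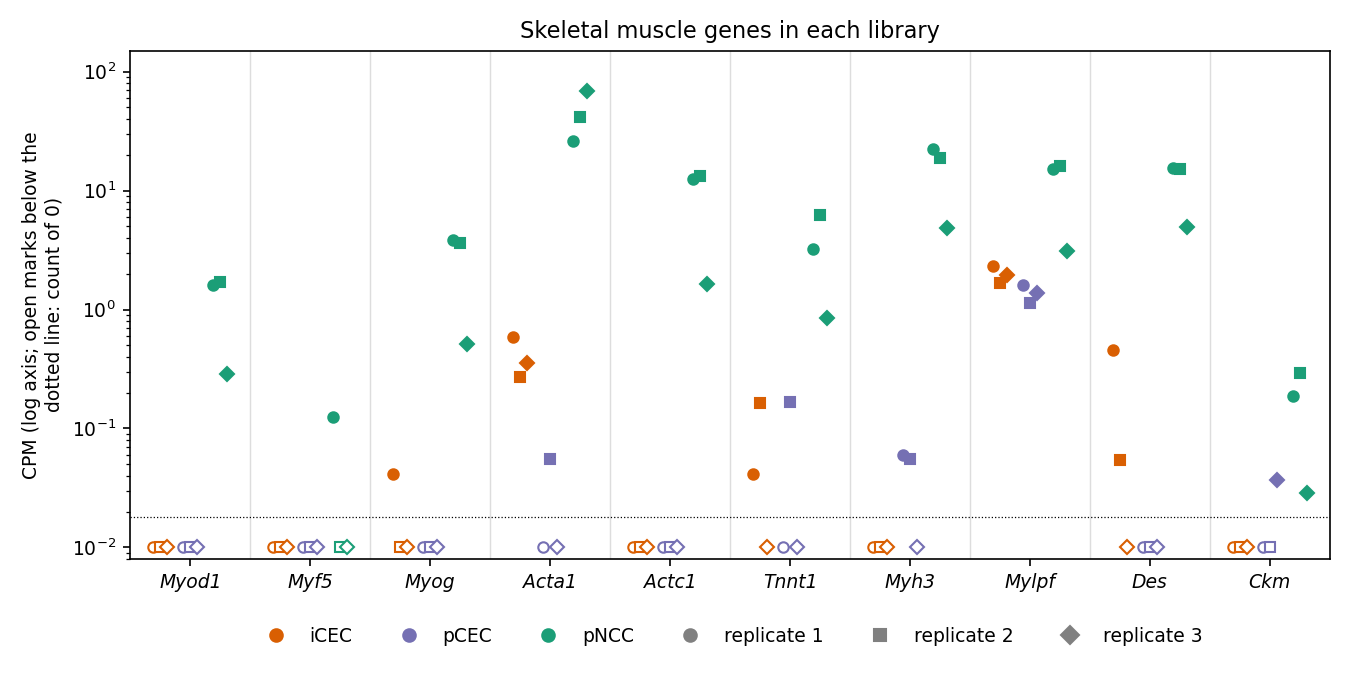
Level of each of the 10 genes in each library, in CPM on a log axis; marks stand for single libraries, with iCEC and pCEC left of pNCC, and open marks below the dotted line stand for a count of 0. Only Mylpf is above 1 CPM outside pNCC, and pNCC 3 lies below pNCC 1 and 2 for 8 of the genes but above them for Acta1.

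Among the myogenic factors, Myod1 (chromosome 7, 46376474 to 46379099, plus strand, mm10) had no count in any iCEC or pCEC library and 52, 58 and 10 counts in pNCC 1, 2 and 3. Those counts came to 1.62, 1.70 and 0.285 CPM. Set against the floor in each library, Myod1 was at least 15.4-fold lower in iCEC and at least 12.8-fold lower in pCEC than in pNCC. It did not pass the filter on low counts, and without that filter its adjusted p was 0.0104 for iCEC and 0.000349 for pCEC, by edgeR's quasi-likelihood test. Its level was therefore low, but all 3 pNCC libraries held it and none of the other 6 did.

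Myog (chromosome 1, 134289989 to 134292548, plus strand), which switches on differentiation, stood at 0.0417, 0 and 0 CPM in iCEC 1, 2 and 3, at 0 in all 3 pCEC libraries, and at 3.85, 3.64 and 0.514 CPM in pNCC 1, 2 and 3. The value in iCEC 1 rests on 2 counts, and the groups did not overlap. By summed counts Myog was 155-fold lower in iCEC than in pNCC (95% counting interval 42.6 to 1289, edgeR adjusted p = 0.0108). The fitted log2 fold change of -7.06 was -9.51 without iCEC 1. In pCEC it was at least 28.3-fold lower (edgeR adjusted p = 0.00498). Myf5 (chromosome 10, 107482908 to 107486134, minus strand), which acts earliest in the embryo, had 4 counts in pNCC 1 and 0 in the other 8 libraries. It was thus close to the floor in the library that held it, and no fold is given.

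Among the thin filament genes, Acta1 (chromosome 8, 123891769 to 123894751, minus strand), the skeletal muscle actin, stood at 0.584, 0.272 and 0.357 CPM in iCEC 1, 2 and 3, at 0, 0.0555 and 0 CPM in pCEC, and at 26.3, 41.8 and 69.3 CPM in pNCC. It was the most abundant of the 10 in pNCC, where its 3 libraries held 846, 1424 and 2426 counts. It was 111-fold lower in iCEC than in pNCC (log2 fold change -6.80 ± 0.575, SE, edgeR adjusted p = 0.000975). In pCEC, with 2 counts in all, it was 2245-fold lower by summed counts (95% counting interval 621 to 18545, edgeR adjusted p = 3.07e-05). The fitted log2 fold change in pCEC, -10.77, was -10.16 without pCEC 1 and -13.50 without pCEC 2, the library that held both counts.

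Actc1 (chromosome 2, 114047282 to 114053548, minus strand) encodes the actin that is made in the heart and early in skeletal muscle. Its level was 0 in every iCEC and pCEC library, and 12.6, 13.2 and 1.63 CPM in pNCC 1, 2 and 3. It was at least 117-fold lower in iCEC (edgeR adjusted p = 0.0119) and at least 96.9-fold lower in pCEC (adjusted p = 0.00330) than in pNCC. The call for iCEC was lost without pNCC 1 (adjusted p = 0.0539) or pNCC 2 (0.0511).

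The 2 actins are similar to each other and to Acta2, the smooth muscle actin that was abundant in pNCC, so their reads could be shared. Over 1134 coding bases, Acta1 was 86.2% identical to Actc1 and 85.4% identical to Acta2. The longest run shared by their whole transcripts was 29 bases in both pairs, and no stretch as long as a read, 150 bases, was shared. Counts of Acta1 amounted to 0.482%, 0.183% and 0.0942% of the Acta2 counts in iCEC 1, 2 and 3, to 0%, 1.79% and 0% in pCEC, and to 2.10%, 1.76% and 2.67% in pNCC. In pCEC that share rests on 2 counts of Acta1 and 220 counts of Acta2 in all. Whether reads were shared between these genes was not tested. Counts of Actc1 were 0% of those of Acta2 in every iCEC library, with 121 to 379 CPM of Acta2 there, and 1.00%, 0.555% and 0.0628% in pNCC 1, 2 and 3.

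Tnnt1 (chromosome 7, 4504570 to 4516382, minus strand), the troponin T of slow fibres, ties troponin to the thin filament. Its level was 0.0417, 0.163 and 0 CPM in iCEC, 0, 0.166 and 0 CPM in pCEC, and 3.23, 6.22 and 0.856 CPM in pNCC. No library of iCEC or pCEC reached the lowest of pNCC. It was 45.3-fold lower in iCEC (log2 fold change -5.50 ± 1.30, SE, edgeR adjusted p = 0.0226) and 48.6-fold lower in pCEC (-5.60 ± 1.20, adjusted p = 0.00545) than in pNCC. The call for iCEC did not hold when pNCC 1 (adjusted p = 0.0755), pNCC 2 (0.0859, log2 fold change -4.77) or iCEC 1 (0.0714) was left out, and the value was -7.01 without iCEC 2. In pCEC the log2 fold change was -4.96 without pCEC 1, -9.73 without pCEC 2, which held all of its counts there, and -4.89 without pNCC 2.

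In the thick filament, Myh3 (chromosome 11, 67078300 to 67102291, plus strand), the embryonic myosin heavy chain, was at 0 in every iCEC library, at 0.0598, 0.0555 and 0 CPM in pCEC 1, 2 and 3, and at 22.6, 18.8 and 4.85 CPM in pNCC 1, 2 and 3. It was at least 198-fold lower in iCEC (edgeR adjusted p = 0.00555) and 313-fold lower in pCEC (adjusted p = 0.000202, log2 fold change -8.29 ± 0.881, SE) than in pNCC. No alternative fit took either call away.

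Mylpf (chromosome 7, 127208890 to 127214298, plus strand), the regulatory light chain of fast fibres, was the only one of the 10 with counts in every library. It stood at 2.34, 1.66 and 1.96 CPM in iCEC, 1.62, 1.14 and 1.39 CPM in pCEC, and 15.3, 16.0 and 3.08 CPM in pNCC. The highest iCEC library, at 2.34 CPM, lay only a little below the lowest pNCC library, at 3.08 CPM. Mylpf was 5.68-fold lower in iCEC (log2 fold change -2.51 ± 0.648, SE, edgeR adjusted p = 0.0306) and 7.50-fold lower in pCEC (-2.91 ± 0.601, adjusted p = 0.00461) than in pNCC. In iCEC the call did not hold when pNCC 1 (adjusted p = 0.108), pNCC 2 (0.115), iCEC 1 (0.0688) or iCEC 2 (0.0814) was left out, and that for pCEC was lost with pCEC 1 as the only pCEC library (0.0944).

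Des (chromosome 1, 75360329 to 75368579, plus strand) encodes desmin, the intermediate filament that holds myofibrils in register and is also made in smooth and heart muscle. It stood at 0.459, 0.0545 and 0 CPM in iCEC 1, 2 and 3, at 0 in every pCEC library, and at 15.5, 15.2 and 4.91 CPM in pNCC 1, 2 and 3. The iCEC counts were mostly those of iCEC 1, and the groups did not overlap. Des was 62.7-fold lower in iCEC (log2 fold change -5.97 ± 1.35, SE, edgeR adjusted p = 0.0197) and at least 126-fold lower in pCEC (adjusted p = 0.000511) than in pNCC. The call for iCEC did not hold when pNCC 1 (adjusted p = 0.0760), pNCC 2 (0.0778), pNCC 3 (0.0513) or iCEC 2 (0.0559) was left out, and the value was -8.51 without iCEC 1.

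Ckm (chromosome 7, 19404776 to 19422841, plus strand), the muscle creatine kinase that buffers ATP and is abundant in mature fibres, was barely detected. Its level was 0 in every iCEC library, 0, 0 and 0.0365 CPM in pCEC, and 0.187, 0.293 and 0.0285 CPM in pNCC. The pCEC value is a single count and lies above that of pNCC 3, which is also a single count. Ckm was at least 2.18-fold lower in iCEC than in pNCC, and 16.3-fold lower in pCEC by summed counts (95% counting interval 2.55 to 679). It did not pass the filter on low counts, and without the filter it was not called by edgeR (adjusted p = 0.0924 for iCEC and 0.115 for pCEC). Des and Ckm each overlap a gene on the other strand, by 220 and 210 exon bases, and the library kit named in the labels does not mark strand. That partner had no count in any library for Des, and at most 4 counts in any library for Ckm.

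Of the 10 genes, 7 passed the filter on low counts in both comparisons with pNCC, and Myod1, Myf5 and Ckm did not. Apart from Mylpf, the genes that passed did so through pNCC alone and so had to differ, which means that the count of calls is a description. All 7 were called lower in iCEC, where 15.1% of the 16293 genes tested were called lower (16.1% higher, 31.3% in either direction). All 7 were also called lower in pCEC, where 32.2% of the 16608 genes tested were called lower (30.3% higher, 62.5% in either direction). Both comparisons share the 3 pNCC libraries. Counting all 10 genes, iCEC did not overlap pNCC for 9, all lower in iCEC (25.9% of genes tested), and pCEC did not overlap pNCC for 8, all lower in pCEC (39.9% of genes tested).

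Between iCEC and pCEC, only Mylpf passed the filter and could be fitted. Its log2 fold change was 0.41 ± 0.438 (SE, edgeR adjusted p = 0.547), although the lowest iCEC library, at 1.66 CPM, lay just above the highest pCEC library, at 1.62 CPM. Mylpf was thus called neither by edgeR nor by DESeq2 (adjusted p = 0.516), against 20.4% of the 16278 genes called by edgeR (9.92% lower and 10.5% higher in iCEC). Acta1, with 50 counts in iCEC and 2 in pCEC, also did not overlap, at 0.404 ± 0.161 CPM and 0.0185 ± 0.0320 CPM (SD, n = 3 each). Groups that did not overlap and were higher in iCEC made up 24.4% of the genes tested. Acta1 was not called without the filter (log2 fold change 4.04, edgeR adjusted p = 0.0918) but was called when all 9 libraries shared a fit (3.95, adjusted p = 0.0120). The other members were not called in either of these fits.

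The pNCC libraries differed among themselves, and the split ran between Acta1 and the other members. Relative to the mean of pNCC 1 and 2, the level in pNCC 3 was 0.172-fold for Myod1, 0.137-fold for Myog, 0.126-fold for Actc1 and 0.181-fold for Tnnt1. It was 0.235-fold for Myh3, 0.197-fold for Mylpf and 0.319-fold for Des, but 2.04-fold for Acta1. All members but Acta1 were thus lowest in pNCC 3, Myf5 with no count there and in pNCC 2. Over the 13182 genes of at least 1 CPM in pNCC the median ratio was 0.958, with quartiles of 0.837 and 1.07. At most 2.28% of those genes had a ratio as low as that of Des, and fewer had one as low as the others, while 98.5% lay at or below that of Acta1. Without Acta1 the summed level of the members was 1.88 to 2.88 CPM in iCEC, 1.36 to 1.68 CPM in pCEC, and 74.98, 75.2 and 16.2 CPM in pNCC 1, 2 and 3. Even pNCC 3 thus lay above all iCEC and pCEC libraries without this gene.

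Genes of several other lists moved with pNCC 3 in the same 2 directions, and some muscle lists were mixed. Of all 13182 genes of at least 1 CPM in pNCC, 7975 were lower and 5207 higher in pNCC 3, and the counts by list stand beside that. Of the thick filament list, all 11 genes of at least 1 CPM were lower in pNCC 3 (median ratio 0.234), and so were all 6 of the thin filament list (median 0.192). Crest markers were lower for 11 of 13 (median 0.376), with Sox10 at 0.376-fold and Foxd3 at 0.342-fold. All 8 smooth muscle markers were higher in pNCC 3 (median 1.64, range 1.02 to 2.81), among them Acta2 at 1.43-fold, the contractile regulator Cnn1 at 2.81-fold and the smooth muscle myosin Myh11 at 1.94-fold. In this library Acta1 thus lay on the side of the smooth muscle markers, while the other members and these thick and thin filament genes did not. The calcium handling list was split, with 3 of 6 genes lower and 3 higher, among them Jph2 at 1.67-fold and Jph1 at 1.39-fold. In the Z-disc and costamere list 6 of 7 were lower, with Flnc at 1.11-fold, and in the synapse list 3 of 4, with Chrnb1 at 1.16-fold. The smooth muscle list of 9 genes summed to between 159 and 464 CPM in iCEC, 7.36 and 13.8 CPM in pCEC, and 1359 and 2808 CPM in pNCC. The smooth muscle cofactor Myocd was at 0 in iCEC and pCEC and at 0.0622, 0.293 and 0.0571 CPM in pNCC, and the part of these lists in the level of Acta1 was not tested.

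**Figure D2:**
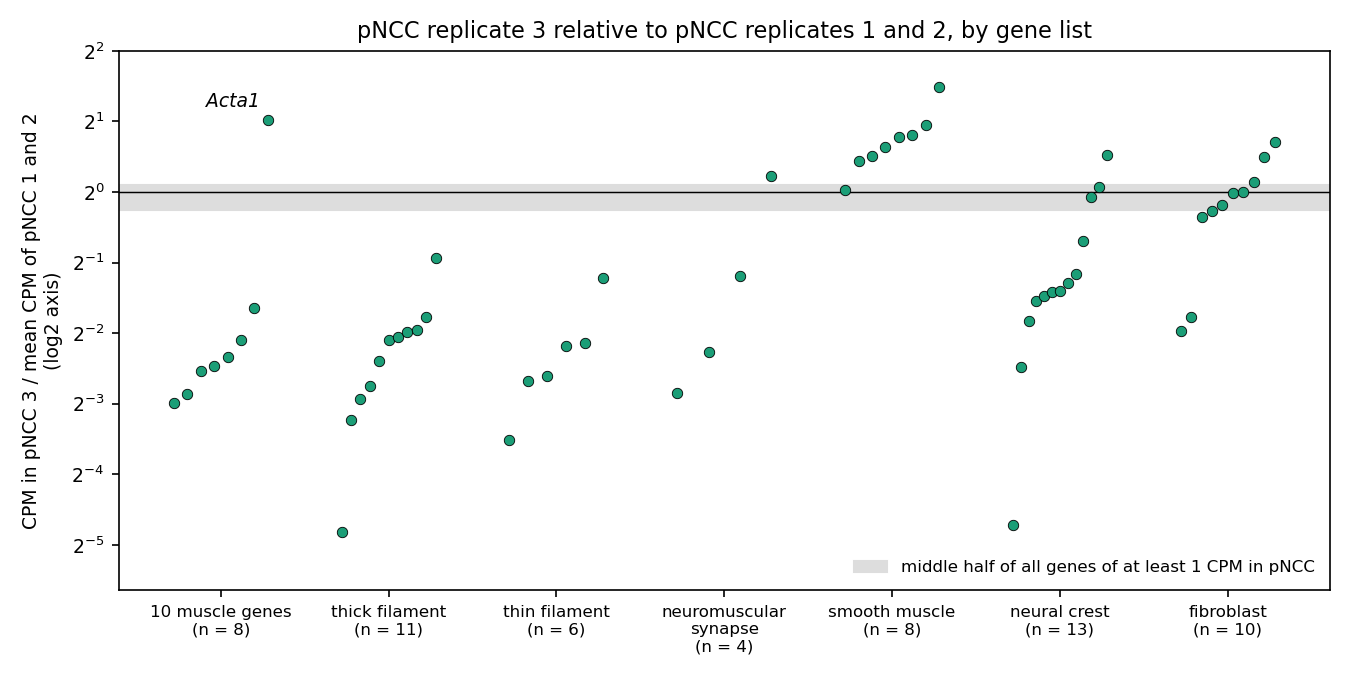
Level in pNCC 3 divided by the mean of pNCC 1 and 2, on a log2 axis, for genes of at least 1 CPM in pNCC, by list; each point is a gene and the grey band spans the quartiles of all 13182 such genes, 0.837 to 1.07. Acta1, at 2.04, lies with the smooth muscle markers and the other 7 muscle genes shown lie between 0.126 and 0.319.

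Levels can be compared between genes only per length, here as CPM per kilobase of exon. In pNCC, Acta1 had 29.8 ± 14.2 CPM per kb and Mylpf 10.8 ± 6.85, followed by Actc1 at 5.64 ± 4.02, Des at 3.17 ± 1.61 and Myh3 at 2.55 ± 1.54 (SD, n = 3). Myog reached 1.78 ± 1.25 CPM per kb, Tnnt1 1.56 ± 1.22, Myod1 0.645 ± 0.427, Ckm 0.0582 ± 0.0457 and Myf5 0.0199 ± 0.0345. Of the myogenic factors, Myog thus stood below 5 structural members, while neighbours in this order from Mylpf to Myod1 lay within each other's spread. Acta2, for comparison, had 944 ± 327 CPM per kb, far above Acta1. In iCEC the order began with Mylpf at 1.87 ± 0.317 CPM per kb and Acta1 at 0.263 ± 0.105, and in pCEC Mylpf at 1.30 ± 0.225 CPM per kb stood alone.

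Myosin heavy chains and acetylcholine receptor subunits have embryonic and adult forms, and these 2 families, chosen after their values were seen, are given as examples from pNCC. Per kb, the embryonic heavy chain Myh3 at 2.55 ± 1.54 CPM led the perinatal chain Myh8 at 0.716 ± 0.468. The adult fast chains Myh1 and Myh4 stood at 0.589 ± 0.384 and 0.271 ± 0.228. Exon length pools all annotated exons of a gene, and at 11772 bases for Myh8, 6057 for Myh3 and 6353 for Myh1 it weighs on these gaps. Not scaled by length, the means were 15.4 ± 9.34 CPM for Myh3, 8.43 ± 5.50 for Myh8 and 3.74 ± 2.44 for Myh1. The adult chain Myh2 and the slow and heart chains Myh7 and Myh6 lay at 0.0112, 0.00464 and 0.00141 CPM per kb, each resting on a few counts. Of the acetylcholine receptor subunits, the fetal subunit Chrng stood at 0.437 ± 0.272 CPM per kb and the adult subunit Chrne, which takes its place after birth, at 0.0344 ± 0.0347. In each pNCC library Chrng lay above Chrne, and Myh3 lay above Myh8. The muscle actins, which were not chosen as an example, had the other order. Actc1, made early in skeletal muscle, stood at 5.64 ± 4.02 CPM per kb, and Acta1 at 29.8 ± 14.2 (SD, n = 3). Acta1 lay above Actc1 in each pNCC library.

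**Figure D3:**
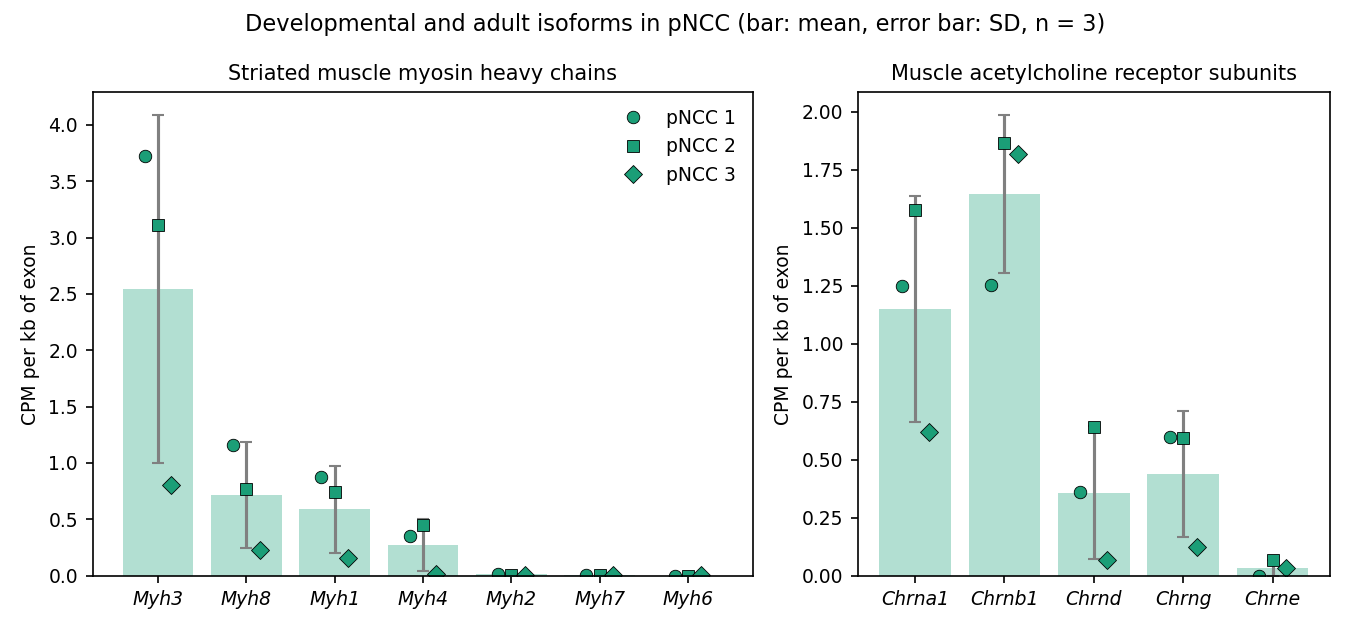
Mean level in pNCC of myosin heavy chains and acetylcholine receptor subunits, in CPM per kilobase of exon (bars, with SD as error bars and single libraries as points, n = 3). Myh3 is the highest heavy chain at 2.55 and Chrng, at 0.437, lies above Chrne, at 0.0344.

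Other genes of the muscle programme were read from 7 lists of 77 genes in all, beyond the 10 members. Of these, 47 were tested between iCEC and pNCC, with 16 called lower (15.1% of all genes tested), 2 higher (16.1% of all) and 29 not called, at a median log2 fold change of -2.01, against 0.05 for all genes tested. Between pCEC and pNCC 52 were tested, with 31 lower (32.2% of all genes tested), 4 higher (30.3% of all) and 17 not called, at a median of -1.94, against -0.01. Many of these genes passed the filter through pNCC alone, so the counts and medians describe the genes that could be fitted and nothing more is read from them.

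Of the fusion and commitment genes, Mymk, the membrane protein that fuses myoblasts, was at 0 in every iCEC and pCEC library and at 2.92, 3.34 and 1.06 CPM in pNCC 1, 2 and 3. It was at least 31.3-fold lower in iCEC (edgeR adjusted p = 0.00711) and at least 25.9-fold lower in pCEC (adjusted p = 0.00114). With Mymk, the coreceptor Cdon was the other called gene of 5 tested in its list between iCEC and pNCC (15.1% of all genes tested were lower). Its log2 fold change was -4.11 (edgeR adjusted p = 0.00517, and -4.81 without iCEC 3). In pCEC, 4 of 7 tested genes of that list were called lower (32.2% of all genes tested) and 3 did not pass. The adult myogenic factor Myf6 stood at 0 in iCEC and pCEC and at 0.0622, 0.176 and 0.114 CPM in pNCC, close to the floor.

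In the thick filament list, 6 of 10 genes tested between iCEC and pNCC were called lower, against 15.1% of all genes, and 4 did not pass. Between pCEC and pNCC 8 of 11 were lower, against 32.2% of all genes, 2 did not pass and 1 was higher, the slow fibre and ventricular light chain Myl3, named after its values were seen (log2 fold change 3.87, adjusted p = 0.000823). Myh8 was at 0 in every iCEC and pCEC library and at 13.6, 9.03 and 2.66 CPM in pNCC, which was at least 108-fold lower in iCEC (edgeR adjusted p = 0.00717) and at least 89.6-fold lower in pCEC (0.00145). The light chains Myl1 and Myl4 followed the same pattern. Myl1 was 278-fold lower in iCEC by summed counts (95% counting interval 94.8 to 1352, edgeR adjusted p = 0.0108) and at least 75.8-fold lower in pCEC, and the call for iCEC was lost without pNCC 2 (0.0502). Its fitted log2 fold change of -7.86 was -7.23 without iCEC 1 and -11.04 without iCEC 2. Myl4, an embryonic and atrial light chain, had log2 fold changes of -5.89 in iCEC (adjusted p = 0.00370) and -5.81 in pCEC (0.000281). The giant spring protein Ttn stood at -3.82 in iCEC (adjusted p = 0.0214), a call lost without pNCC 1 (0.0796), pNCC 2 (0.0736) or iCEC 1 (0.0610), with a value of -4.73 without iCEC 2.

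Thin filament and Z-disc genes that were called in iCEC were lower there, while the thin filament list went both ways in pCEC. In that list Neb, which runs along the actin filament, was the only 1 of 7 tested genes called lower in iCEC (15.1% of all genes tested). Its log2 fold change was -3.72 (edgeR adjusted p = 0.0230), and the call was lost without pNCC 1 (0.0853), pNCC 2 (0.0834) or iCEC 2 (0.0520). In pCEC 4 of 7 thin filament genes were lower (32.2% of all genes tested), 2 were higher (30.3% of all) and 1 did not pass. The higher ones were Tnni2 (described further on) and Tmod4, a cap of thin filament ends named after its values were seen (log2 fold change 3.51, adjusted p = 0.00135). Of 8 Z-disc and costamere genes, 2 were lower in iCEC (15.1% of all genes tested), the fast fibre actinin Actn3 (-6.15, adjusted p = 0.00726) and the sarcomere protein Klhl41 (-2.98, 0.0308). The call of Klhl41 was lost without pNCC 1 (0.110), pNCC 2 (0.108), pNCC 3 (0.0713) or iCEC 1 (0.0908), and its value was -3.90 without iCEC 2. In pCEC 7 of 10 Z-disc genes were lower (32.2% of all genes tested) and 3 did not pass, with Actn3 at -6.65 (adjusted p = 0.000344), -5.99 without pCEC 1 and -8.32 without pCEC 3.

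Synapse genes divided by subunit. The acetylcholine receptor subunit Chrna1 was at 0 in every iCEC library, at 0.209, 0.832 and 0.219 CPM in pCEC, and at 5.47, 6.92 and 2.71 CPM in pNCC. It was at least 64.7-fold lower in iCEC (edgeR adjusted p = 0.00401), and its log2 fold change was -3.40 in pCEC (0.00280), or -4.37 without pCEC 2. Chrng was 212-fold lower in iCEC by summed counts, with 1 count in iCEC 3 (95% counting interval 37.7 to 8438, adjusted p = 0.00676), and its fitted log2 fold change of -7.24 was -9.04 without iCEC 3. Chrnb1, by contrast, stood at 7.05, 8.26 and 19.0 CPM in iCEC and 3.17, 4.72 and 4.60 CPM in pNCC (log2 fold change 1.40, adjusted p = 0.0468). That call was lost without pNCC 1 (0.162), pNCC 2 (0.142), pNCC 3 (0.128), iCEC 2 (0.0657) or iCEC 3 (0.0597), with DESeq2 size factors (0.0542) and with no filter (0.0708).

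Few genes of calcium handling were called in iCEC, and those went both ways. Of 7 tested against pNCC, 1 was lower (15.1% of all genes tested), 1 higher (16.1% of all) and 5 were not called. In pCEC 4 of 8 were lower (32.2% of all genes tested), 1 was higher (30.3% of all) and 3 were not called. Casq2, the calcium store protein of heart and slow muscle, stood at 27.8, 8.83 and 22.9 CPM in iCEC, 0.0598, 0 and 0.146 CPM in pCEC, and 3.89, 5.69 and 1.48 CPM in pNCC. All iCEC libraries were thus above all others, and all pCEC libraries below. The log2 fold change was 2.42 between iCEC and pNCC (edgeR adjusted p = 0.0289) and -5.63 between pCEC and pNCC (0.00136). Between iCEC and pCEC it was 8.05 (adjusted p = 0.00553). The rise in iCEC over pNCC was the least stable of the 3 calls. It was lost without pNCC 1 (0.103), pNCC 2 (0.0590), pNCC 3 (0.0725) or iCEC 1 (0.0752). Of the other values, that between pCEC and pNCC was -4.98 without pCEC 2 and -6.71 without pCEC 3, and that between iCEC and pCEC was 7.42 without pCEC 2 and 9.17 without pCEC 3.

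The calcium pump of fast fibres, Atp2a1, was lower in iCEC (log2 fold change -3.02, edgeR adjusted p = 0.0293), a call lost without pNCC 1 (0.102), pNCC 2 (0.107) or iCEC 1 (0.0794), with a value of -3.84 without iCEC 2. Muscle enolase Eno3 fell by 2.01 on the log2 scale in iCEC (adjusted p = 0.0137, lost without pNCC 2 at 0.0642 and pNCC 3 at 0.0551) and by 1.83 in pCEC (0.000167). Cox6a2, a muscle subunit of cytochrome oxidase, was 91.6-fold lower in iCEC by summed counts (95% counting interval 25 to 763, adjusted p = 0.00821), and its fitted value of -6.25 was -5.65 without iCEC 1 and -8.83 without iCEC 3. Eno3 and Cox6a2 were the called genes of 5 tested in the energy list of iCEC (15.1% of all genes tested were lower), and the other 3 did not pass.

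Genes known from muscle precursors went both ways. Of 12 listed, 7 were tested in each comparison. In iCEC 2 were called higher (16.1% of all genes tested) and 5 were not called. In pCEC 2 were higher (30.3% of all), 4 lower (32.2% of all) and 1 not called. Pax3, a factor of crest and muscle precursors, stood at 10.9, 9.65 and 0 CPM in iCEC, 0.0598, 0.0555 and 0.146 CPM in pCEC, and 12.2, 10.6 and 2.97 CPM in pNCC. It overlapped pNCC in iCEC but not in pCEC, where it was 88.7-fold lower (edgeR adjusted p = 0.000241). Pax7, the marker of muscle stem cells, had at most 0.622 CPM in any library, and Tcf21 was at 0 throughout.

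The 2 that were higher in both kinds of cells were Eya2, a transcriptional coactivator, and Met, the receptor of hepatocyte growth factor, which epithelia also express. Eya2 stood at 153, 155 and 202 CPM in iCEC, 48.2, 69.7 and 57.7 CPM in pCEC, and 0.435, 0.440 and 0.114 CPM in pNCC. Its log2 fold change was 9.01 in iCEC (edgeR adjusted p = 0.000344) and 7.61 in pCEC (7.63e-06). Met had log2 fold changes of 2.65 in iCEC (adjusted p = 0.00546) and 2.30 in pCEC (8.07e-05).

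**Figure D4:**
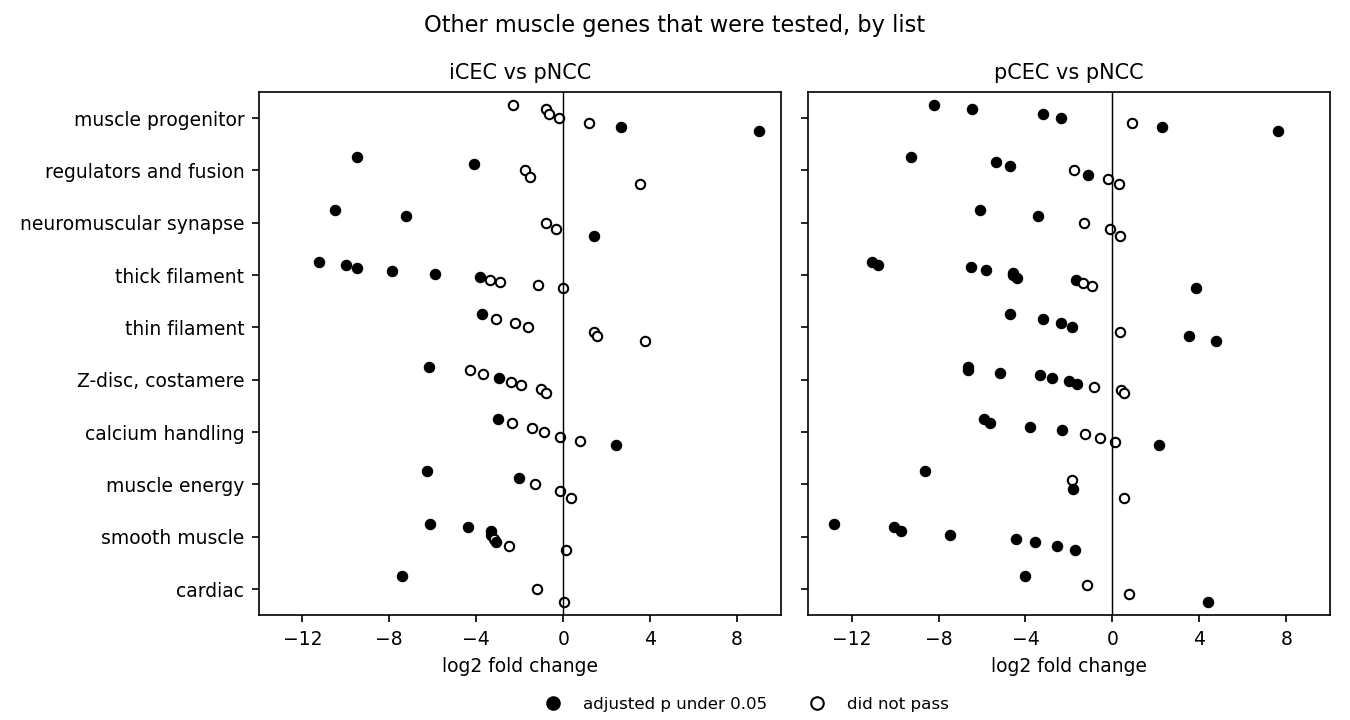
Log2 fold change of each tested gene of the muscle, smooth muscle and cardiac lists, in iCEC (left) and pCEC (right) relative to pNCC; filled points had an adjusted p under 0.05 and open points did not. Values lie mostly below 0, with the thick filament list reaching -11.25 for Myh8 in iCEC and the precursor gene Eya2 highest at 9.01.

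Most smooth muscle genes, which share actins, desmin and much of the contractile machinery with the members, were also lower outside pNCC. Of 8 tested, 5 were called lower in iCEC (15.1% of all genes tested), where 3 did not pass, and all 8 in pCEC (32.2% of all genes tested). Acta2 stood at 216 ± 142 CPM in iCEC, 2.24 ± 0.836 CPM in pCEC and 2074 ± 719 CPM in pNCC (SD, n = 3 each), with log2 fold changes of -3.32 in iCEC (edgeR adjusted p = 0.00554) and -9.72 in pCEC (1.00e-05). It was 6.41 higher on the log2 scale in iCEC than in pCEC (adjusted p = 0.00248). Heart markers were read as a check for another kind of muscle. The list of 10 summed to between 0.804 and 13.49 CPM in iCEC, 2.50 and 4.56 CPM in pCEC, and 4.01 and 6.54 CPM in pNCC. Of its genes, Hand1 was at 0 in every library and Myh6 and Nppa at 0 or a single count in each pNCC library. Others were present, with Tbx5 at 3.33 ± 1.78 CPM in pNCC, the highest mean of the list there. In pNCC Tnni3 stood at 1.14 ± 0.540 CPM and Nppb at 0.679 ± 0.181 CPM (SD, n = 3). Gata4 stood at 10.1 CPM in iCEC 1. Against pNCC, 1 of 3 tested heart genes, Tbx5, was called lower in iCEC (15.1% of all genes tested). In pCEC, 1 of 4 was lower (32.2% of all) and 1 higher (30.3%). The list thus was not empty in pNCC.

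A muscle gene that went the other way was Tnni2, the troponin I of fast fibres, singled out after its values were seen. It stood at 2.56, 6.70 and 4.91 CPM in iCEC, 35.8, 49.3 and 47.5 CPM in pCEC, and 2.74, 2.49 and 0.228 CPM in pNCC. The pCEC libraries were thus far above all others. The log2 fold change was 4.76 between pCEC and pNCC (edgeR adjusted p = 0.000921), against 62.5% of all genes called there, and -3.35 between iCEC and pCEC (0.00539). Tnnc2, the troponin C partner of fast fibres, had at most 4 counts in any library.

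Across the 9 libraries, each member was set against the mean standardized log2 CPM of the other 9. Pearson's r was 0.997 for Myog, 0.994 for Myod1, 0.992 for Actc1, 0.970 for Myh3, 0.963 for Mylpf, 0.953 for Des and 0.936 for Tnnt1. It was lower for Ckm (0.887), Acta1 (0.877) and Myf5 (0.571). These values describe 9 libraries that fall into groups by design, and they share the split between pNCC and the rest. Ckm and Myf5 were the members closest to the floor, and Acta1 the one that was highest in pNCC 3. Of 14154 other genes of at least 1 CPM, 461 had an r over 0.9 with the mean of the members. The 8 highest were Il6st (0.988), Myh8 (0.988), Kcnt2 (0.987), Myl1 (0.987), Tnfsf11 (0.982), Myl4 (0.979), Prokr1 (0.977) and Lhx8 (0.977). Sarcomere genes of the lists thus ranked among genes with no listed link to muscle, such as Il6st, which stood at 73.8 to 125 CPM in the iCEC and pCEC libraries and at 386.7 to 964 CPM in pNCC.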

How the data were processed

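RNA was sequenced with paired reads of 150 bases, per the labels, and the authors deposited raw whole-number counts per gene symbol for the 9 libraries, with no normalization. Per the submitters' processing notes reads were placed on build mm10 and edgeR had a role that is not given there. Aligner, counter and annotation are not given in the sources used here. Groups and replicate numbers came from the sample titles. For each comparison the 6 libraries of its 2 groups were fitted alone, with edgeR 4.0.16 in R 4.3.3, with filterByExpr, TMM scaling and a robust, 2-sided quasi-likelihood test with group as the only term. P-values were adjusted by Benjamini-Hochberg over every gene in the fit and called under 0.05, and SE is the size of a log2 fold change over the root of its F statistic. CPM was computed by total count with no pseudocount. Where a group had no count, the fold is a bound at a floor of 3 counts per library, and where it had 1 to 3 counts, a ratio of summed counts scaled by library totals with an exact 95% binomial interval. Both cover counting error only. The smallest p that an exact permutation test allows for 3 libraries against 3 is 0.1, so sums and ratios carry no test. Positions and exon lengths were taken from GENCODE M21 on mm10, and promoters, matched by symbol for 9 of the 10 genes, from RefSeq on GRCm38.p6.

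The 10 genes and the lists were chosen with earlier results of these data known. Named were the 10 genes, from each list up to 4 called genes with the smallest adjusted p between iCEC and pNCC and up to 4 with the highest mean in pNCC, genes standing for a cell type, and the 8 genes most like the members. Likeness used log2 CPM with a prior count of 2. Alternatives were DESeq2 size factors, the DESeq2 1.42.0 Wald test, all 9 libraries in one fit, no filter, a filter of 1 CPM in 3 libraries, a replicate block, each library left out, pCEC 1 alone, at least 2-fold, and, chosen after seeing the data, halved counts. One gene that the naming rule gives is not reported here. The fit was tested on simulated data. Tables and figures were made with matplotlib 3.10.9, pandas 2.3.3, numpy 2.4.6 and scipy 1.17.1 in Python 3.11.15.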

Additional observations from a re-analysis of the deposited data

How the results depend on the processing

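No alternative turned the direction of a member. Of the calls of members, 29 of 42 between iCEC and pNCC held when 1 library was left out and 13 did not, while all 42 between pCEC and pNCC held. Leaving out 1 library gave 2322 to 7684 genes (5093 with all), 3 to 8 members (7) and 44 to 86 list genes (61) called between iCEC and pNCC. For pCEC against pNCC it gave 9207 to 10687 genes (10382), 7 to 8 members and 80 to 104 list genes (90), and between iCEC and pCEC 1131 to 4974 genes (3327), 0 members and 22 to 48 list genes (41). The summed level of the members ran from 2.24 to 2.89 CPM in iCEC, 1.42 to 1.55 CPM in pCEC and 93.3 to 109 CPM in pNCC. Without Actc1 and Acta1 the sum in pNCC was 46.3 CPM, because Acta1 alone held much of it. When all 9 libraries shared a fit, 1 member, Acta1, was called between iCEC and pCEC. With pCEC 1 as the only pCEC library edgeR called 0 genes and 0 list genes there (2529 genes and 38 list genes at an unadjusted p under 0.05, of 18806 genes), where that single library was taken to vary as the iCEC libraries do, and the cause was not tested. Without a filter 8 members were called in each comparison with pNCC, with 1 CPM in 3 libraries 5, and with halved counts 6, since these settings change which members are tested.

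Same-numbered libraries did not deviate together (correlations of -0.208 to 0.072 over the 3 comparisons), so the numbers were not taken to pair the samples. With a replicate block edgeR called 2864 genes and 6 members between iCEC and pNCC, Mylpf being lost (adjusted p = 0.0766), as were, of the list genes named, Ttn (0.0520), Neb (0.0961), Chrnb1 (0.0821), Klhl41 (0.0525), Atp2a1 (0.0522) and Casq2 (0.0833), and 1295 genes and 24 list genes between iCEC and pCEC. Low counts limit Myf5 and Ckm, which lay at or near the floor of 3 counts in pNCC.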
